A study of Apis mellifera with 4 samples.

Results

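The honey bee array carried a run of odorant receptors named AmOr with the numbers 1 to 61, and this account covers 56 of them. The co-receptor AmOr002 and the receptors AmOr010, AmOr011, AmOr018 and AmOr042 were left out by name. The remaining 56 receptors are all the others in that number range, and they make up 56 of the 313 genes printed on the array. Antennal RNA of honey bee drones (males) was compared with antennal RNA of workers (females). For both sexes the labels describe whole antennae taken at the hive entrance, in pools of 50 sets, with drones called mature in the design text. No label states the strain, the colony, the age in days or the season. On each of 4 two-colour arrays 1 drone pool was hybridised against 1 worker pool. The design text describes each pool as collected independently. The arrays are therefore 4 replicates of 1 comparison, and their number limits the precision of each value. Drone RNA carried the dye Cy3 on arrays 1 and 3 and Cy5 on arrays 2 and 4, per the label fields.

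Insect odorant receptors are membrane proteins of olfactory neurons in the antenna. Each works as an ion channel together with a shared co-receptor, which in the honey bee is AmOr002, and the tuning receptor sets which odours open the channel. An olfactory neuron usually uses 1 tuning receptor, and its axon runs to a matching glomerulus of the antennal lobe. The honey bee family is large, and many of its genes lie side by side in tandem clusters. Drones search for queens in flight and workers forage and tend the nest, and the study asked which chemosensory genes differ between the antennae of the sexes. Among the receptors left out, AmOr011 is known as the receptor for queen substance, the main queen pheromone component. In whole antennae, fewer neurons using a receptor and less RNA per neuron cannot be told apart. No ligand is given for any of the 56 receptors in the labels or the design text.

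The tissue label was checked against genes of olfactory antennae. AmOr002, the sensory neuron membrane protein AmSNMP and the antennal binding proteins AmOBP01 and AmOBP02 were above the negative controls on every array in both sexes. None of the 5 opsins, the light receptors that served as markers of other tissue, reached 3 arrays in either sex. Of these opsins, 1 was above the controls on no array in either sex, and the others were above them on at least 1. Most of the odorant receptors covered here did not reach 3 arrays either, so the opsin result cannot show that other tissue was absent. Throughout, a gene counted as above the controls on an array where its 2 spots, after subtraction of local background, averaged more than the negative controls' mean by over 2 of their SD in the same channel. That threshold leaves out 1 control oligonucleotide, number 4, which was bright on every array, unless stated otherwise. AmOr002 itself had drone signals of 10010, 3946.5, 27330.5 and 11355 on arrays 1 to 4, against worker signals of 5250.5, 2892, 26052 and 3905. The drone signal was the higher on each array.

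Array 4 stood apart from arrays 1 and 3 for the 56 receptors. Across the 56 receptors, the log2 ratios of arrays 1 and 4 correlated at r = -0.49, and those of arrays 3 and 4 at r = -0.43. Across the other 257 genes the same pairs gave r = 0.49 and r = 0.45. Arrays 1 and 3, both with drone RNA in Cy3, correlated at r = 0.71 over the receptors. Arrays 2 and 4, both with drone RNA in Cy5, correlated at r = 0.41. The pair of arrays 1 and 2 gave r = 0.31 and that of arrays 2 and 3 gave r = 0.07, against r = 0.80 and r = 0.71 over the other genes. These are descriptions across genes, which share arrays and dyes and are not independent replicates. Mean ratios of the other 257 genes ran from -4.45 to 4.77. Those genes include AmOr010, AmOr011, AmOr018 and AmOr042, which were left out of the 56 by name. A lower r over the 56 can follow from how the lists were made, so nothing is read from that contrast. Arrays 3 and 4 lay on 1 slide and had opposite dye orientations. Without array 4 the mean ratio of 15 of the 56 receptors took the other sign, and that of 41 kept its sign. No such count was made over all genes or with another array left out. The 15 are therefore not read as particular to array 4 or to these receptors. Values without array 4 stand beside the results it moved most.

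**Figure D1:**
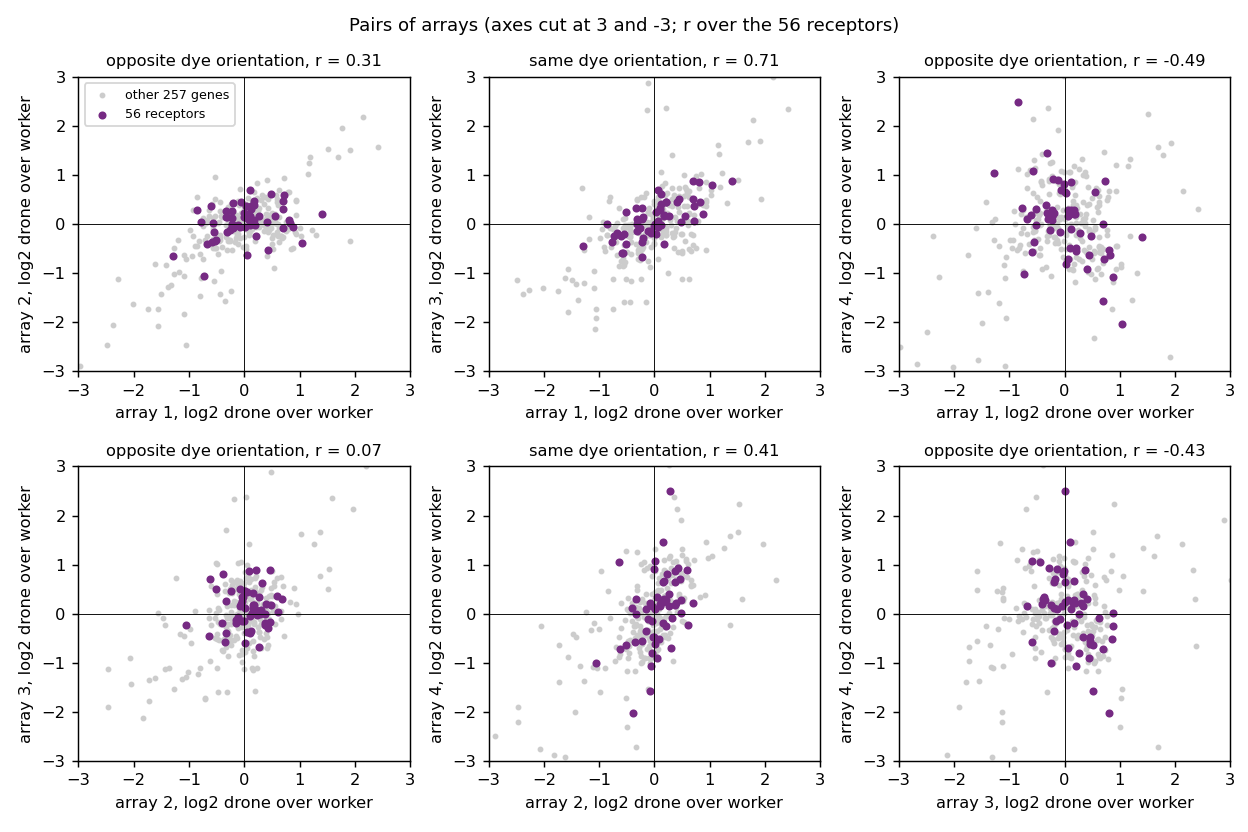
Each panel sets the log2 drone over worker ratios of 2 arrays against each other, with 56 receptors in purple and the other 257 genes in grey; axes end at 3 and -3. The purple points rise together on arrays 1 and 3 (r = 0.71) and run in opposite directions on arrays 1 and 4 (r = -0.49).

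Of the 56 receptors, 44 were not above the controls on 3 or more arrays in either sex. With all 8 control oligonucleotides in the threshold, no receptor of the 56 was above the controls on 3 or more arrays in drone or in worker antennae, where 8.95% and 8.31% of all 313 genes were. Without oligonucleotide 4, 6 receptors passed in drone and 10 in worker antennae, 4 of them in both sexes and 12 in at least 1. The same threshold passed 28.8% of all genes in drone and 31% in worker antennae. Of the 56, 10 were above the controls on no array in either sex, where 24.6% of all genes were so. They were AmOr003, AmOr007, AmOr013, AmOr015, AmOr016, AmOr028, AmOr031, AmOr032, AmOr033 and AmOr051. They were not detectable at this signal, which does not show that they are absent. No receptor reached saturation on any array. The fit described below had no filter on dim genes, so all 56 were tested, and for most of them the ratio compares signals close to the controls.

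The 4 receptors above the controls on at least 3 arrays in both sexes were AmOr048, AmOr005, AmOr039 and AmOr021. AmOr048 had drone signals of 2569, 534.5, 2261.5 and 1518.5 on arrays 1 to 4, against worker signals of 2152.5, 726.5, 2665 and 1886. It was above the controls on 4 arrays in both sexes, and the drone and worker signals overlapped. AmOr005 had drone signals of 1011.5, 179, 1452 and 603.5, against worker signals of 664.5, 221.5, 1458 and 758.5. It too was above the controls on 4 arrays in both sexes, with overlapping signals. AmOr039 had drone signals of 1152, 357.5, 1078.5 and 485, against worker signals of 1415.5, 540.5, 1653.5 and 959. Its drone signal was the lower on each of the 4 arrays before normalization, and it cleared the controls on 3 arrays with drone RNA and on 4 with worker RNA. The other receptors that reached 3 arrays in a sex were AmOr022 and AmOr057 in drone antennae, and AmOr012, AmOr024, AmOr025, AmOr038, AmOr059 and AmOr060 in worker antennae. AmOr021 reached 4 arrays in drone and 3 in worker antennae.

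Counts of receptors above the controls differed by sex together with dye. In drone antennae 13, 22, 7 and 4 of the 56 were above the controls on arrays 1 to 4, against 8, 36, 8 and 32 in worker antennae. The wide worker excess on arrays 2 and 4 fell on the arrays with worker RNA in Cy3, and on array 3 the counts differed by 1. Likewise, 20 receptors were above the controls on no array in drone but on at least 1 in worker antennae, and none the other way round. Over all 313 genes these counts were 84 and 6. The median receptor signal in drone RNA was 448, 49.5, 606.5 and 163 on arrays 1 to 4, against 195, 98.75, 488.75 and 621.25 in worker RNA. On every array the higher median belonged to the sex labelled with Cy3. The part of the dye in the counts was not tested.

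**Figure D2:**
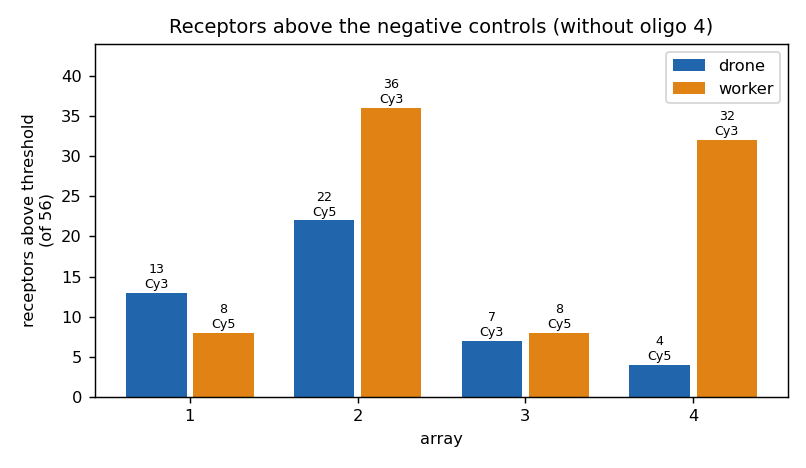
Bars give the number of the 56 receptors above the negative controls (threshold without oligonucleotide 4) on each array, drone left and worker right, with the dye of that channel above each bar. Worker bars stand at 36 and 32 on arrays 2 and 4, where worker RNA was in Cy3, against 22 and 4 for drone RNA in Cy5.

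No receptor of the 56 was called between drone and worker antennae at an adjusted p under 0.05 (limma, Benjamini-Hochberg over 313 genes, n = 4 arrays), whereas 11.8% of all genes were, 4.47% as higher in drone and 7.35% as higher in worker antennae. Nothing is read from this count, because AmOr010, AmOr011, AmOr018 and AmOr042, all called, had been left out by name. The mean log2 drone over worker ratios of the 56 ran from -0.76 (AmOr044) to 0.64 (AmOr021), with a median of 0.034, against 0.015 over all genes. By direction, 32 ratios were positive and 24 negative with loess, where 52.1% of all genes were positive. Positive ratios numbered 6 under housekeeping centring, 15 under centring on the genes that are no receptors, 15 without normalization and 30 under median centring. With the dyes of the protocol text they numbered 23. The split by direction therefore depends on the scaling and on the dyes assigned. Centring each array on the 4 housekeeping genes in place of loess turned the median negative, to -0.28, while the median of all genes moved to -0.25. At an unadjusted p under 0.05 there were 4 receptors, or 7.14% of the 56, with AmOr021 and AmOr022 higher in drone and AmOr044 and AmOr060 higher in worker antennae. Of all genes 21.7% passed that level.

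The 4 arrays limited how large a sex difference could be missed. The 95% interval of the log2 ratio lay inside -1 and 1 for 48 of the 56 receptors, and inside -2 and 2 for all 56. Over all genes these counts were 229 and 290 of 313. Receptors with large ratios had been left out of the 56 by name, so nothing is read from that contrast. The count of 48 depended on the processing. It was 0 with housekeeping centring, 6 without normalization, 28 with centring on the genes that are no receptors and 36 with plain subtraction of background. The highest count was 53, with a dye coefficient. The median distance from the mean to the end of its interval was 0.47. For the receptors below the controls these intervals describe the measured ratio of dim spots, since normexp with an offset draws such ratios toward 0. The SD of the log2 ratio over the 4 arrays had a median of 0.37 for the receptors and 0.41 for all genes.

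**Figure D3:**
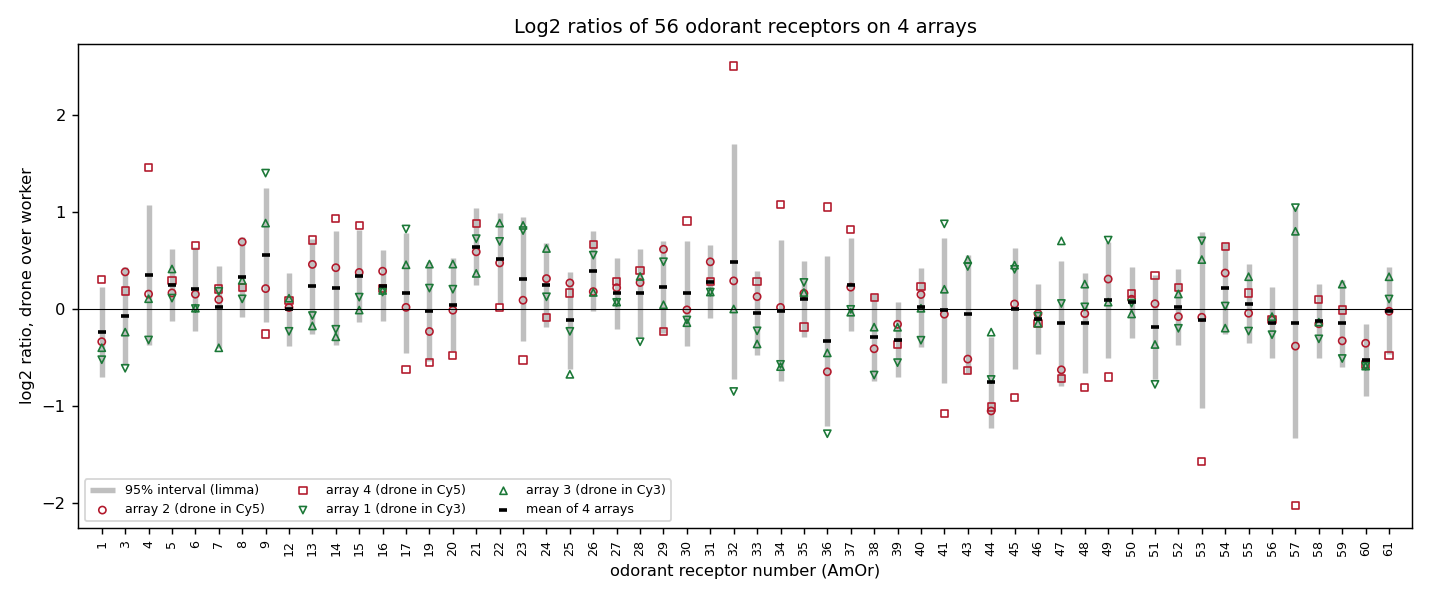
Points give the log2 drone over worker ratio of each of the 56 receptors on each of the 4 arrays, red where drone RNA was in Cy5 and green where it was in Cy3; black bars are means and grey bars limma's 95% intervals. Means run from -0.76 for AmOr044 to 0.64 for AmOr021, and the red squares of array 4 lie farthest from the others for AmOr032 and AmOr057.

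AmOr044 and AmOr021 came nearest to a call. AmOr044 had drone signals of 533.5, 37, 744.5 and 174 on arrays 1 to 4, against worker signals of 606, 242, 1075 and 1019.5. The worker signal was the higher on each array, although it was above the controls only on arrays 2 and 4 and the drone signal on none. Its log2 ratios after normalization were -0.73, -1.05, -0.24 and -1.01, with a mean of -0.76 ± 0.19 (SE) and an adjusted p of 0.0566 in limma. Because the drone signal stayed under the controls, the measured difference is given as an estimated bound, 1.23-fold higher in worker antennae, in a receptor that did not pass the test. The bound has no error attached, and its worker level includes arrays 1 and 3, where the worker signal was under the controls. It is therefore no guaranteed minimum. AmOr021 had drone signals of 1735, 79, 1013.5 and 1833.5, against worker signals of 774, 84, 932 and 867. The drone signal was the higher on arrays 1, 3 and 4 and a little lower on array 2, which was the dimmest array. Its log2 ratios were 0.72, 0.59, 0.37 and 0.88, above 0 on 4 of 4 arrays, with a mean of 0.64 ± 0.17 and an adjusted p of 0.0566 in limma. With a dye coefficient in the fit, which removes a shared dye effect per gene, both passed the threshold. The adjusted p was then 0.0125 for AmOr044 and 0.0339 for AmOr021 (limma), and 16% of all genes were called. Both also passed with no background correction and with the arrays of a slide averaged, each of which called 12.8% of all genes. Without array 3, where 7.67% of all genes were called, AmOr044 alone among the 56 passed, with an adjusted p of 0.0484 (limma). Neither was called under the settings that follow. The adjusted p of AmOr044 and AmOr021 was 0.119 and 0.528 with median centring, 0.136 and 0.432 with centring on the genes that are no receptors, 0.332 and 0.644 without normalization, and 0.948 and 0.998 with housekeeping centring (limma). Without array 2 it was 0.321 and 0.271, and without array 1 it was 0.195 and 0.212. With the dyes of the protocol text both ratios took the other sign, at 0.39 for AmOr044 and -0.28 for AmOr021. Under that setting 0 of all 313 genes were called.

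AmOr060 and AmOr022 followed. AmOr060 had drone signals of 537, 109.5, 944 and 390, against worker signals of 538.5, 250.5, 1969 and 982.5. Drone and worker signals were nearly equal on array 1, and the worker signal was the higher on the other arrays. The log2 ratios of -0.59, -0.35, -0.59 and -0.57 had a mean of -0.53 ± 0.15 (SE) and an adjusted p of 0.0885 in limma. When only the 105 genes above the controls on 3 arrays of at least 1 sex were tested, an alternative added after seeing the data, 38.1% of the tested genes were called. AmOr060 then had an adjusted p of 0.0194 and AmOr021 one of 0.0143 (limma). AmOr060 entered that set only through worker antennae, where its signal was the higher, so the filter was partly decided by the difference under test. AmOr021 cleared the filter in both sexes. AmOr022 had drone signals of 767.5, 158, 1235 and 352, against worker signals of 244.5, 154, 800.5 and 753. Drone was higher on arrays 1 and 3 and worker on array 4, with near equal signals on array 2. The log2 ratios were 0.69, 0.47, 0.88 and 0.01, and the mean of 0.52 ± 0.20 had an adjusted p of 0.174 in limma.

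**Figure D4:**
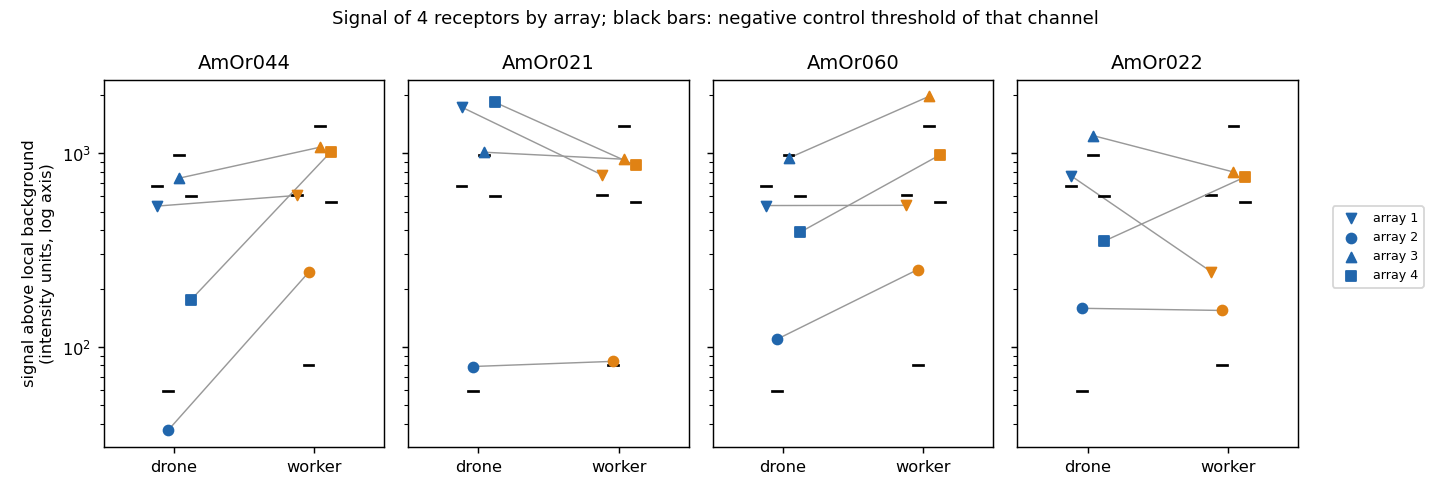
Signal above local background on a log axis for AmOr044, AmOr021, AmOr060 and AmOr022, drone left and worker right, with lines joining the channels of an array and black bars at the negative control threshold of that channel. The drone signals of AmOr044 (37 to 744.5) lie below their thresholds on all 4 arrays, and those of AmOr021 (79 to 1833.5) lie above theirs.

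Leaving out array 4 moved which receptors were called. Without it 13.7% of all genes were called, and AmOr022 and AmOr036 were among them. AmOr022 then had a log2 ratio of 0.68 and an adjusted p of 0.0446 (limma). AmOr036, named here after its values were seen, had drone signals of 212, 151, 475 and 229.5 on arrays 1 to 4, against worker signals of 281, 383.5, 744 and 424.5. Before normalization its worker signal was the higher on each array, array 4 included. After normalization its log2 ratios of -1.28, -0.65 and -0.45 on arrays 1 to 3 stood against 1.05 on array 4. Its adjusted p was 0.0388 without array 4, against 0.729 with it (limma). In both sexes AmOr036 was above the controls on array 2 only, so its ratios on the other arrays compare signals under the controls. AmOr044 had an adjusted p of 0.0709 and AmOr021 one of 0.0889 without array 4 (limma). The ratios of AmOr044 and AmOr021 kept their direction without array 4, at -0.67 and 0.56.

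Of the 10 receptors with the smallest p in limma, the other 6 had adjusted p values of 0.246 to 0.41. AmOr026 had log2 ratios of 0.55, 0.18, 0.17 and 0.67 on arrays 1 to 4. AmOr008 had 0.10, 0.69, 0.29 and 0.22, and AmOr031 had 0.17, 0.48, 0.17 and 0.28. These 3 were above 0 on all 4 arrays, and none of them was above the controls on more than 1 array in either sex. AmOr039 had ratios of -0.55, -0.16, -0.19 and -0.36, below 0 on all 4 arrays. AmOr015 had 0.12, 0.38, -0.01 and 0.86, and it was above the controls on no array in either sex. Without array 4 its mean of 0.34 became 0.16. AmOr009 had 1.40, 0.21, 0.88 and -0.26, so that its ratios with drone RNA in Cy3 lay above those with drone RNA in Cy5. Its mean of 0.56 became 0.83 without array 4, with an adjusted p of 0.0501, against 0.341 with all arrays (limma), and 0.28 without array 1.

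After loess normalization, the direction of the ratio held on all 4 arrays for 14 receptors. It was above 0 on every array for 9 of the 56, namely AmOr005, AmOr006, AmOr008, AmOr016, AmOr021, AmOr022, AmOr026, AmOr027 and AmOr031, where 15% of all genes did so. It was below 0 on every array for 5 of the 56, AmOr039, AmOr044, AmOr046, AmOr056 and AmOr060, against 17.6% of all genes. AmOr005, alone among these 9 in clearing the controls on all 4 arrays in both sexes, had ratios of 0.11, 0.16, 0.41 and 0.29 and a mean of 0.25 ± 0.16 (SE). Before normalization its drone signal was the higher on array 1 only, and the signals of AmOr021 and AmOr022 also differed in direction between arrays. Under housekeeping centring 6 of the 56 mean ratios were positive. The least variable receptor was AmOr046, with ratios of -0.07, -0.05, -0.15 and -0.15 and an SD of 0.05, but its drone signal cleared the controls on no array and its worker signal on 1.

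The other receptors above the controls gave ratios on both sides of 0. AmOr012 had log2 ratios of -0.23, 0.01, 0.11 and 0.09 on arrays 1 to 4, with a 95% interval from -0.38 to 0.37. AmOr024 had 0.12, 0.31, 0.62 and -0.09, and AmOr025 had -0.23, 0.27, -0.67 and 0.16. Their intervals ran from -0.19 to 0.67 for AmOr024 and from -0.61 to 0.38 for AmOr025. AmOr038 had -0.68, -0.41, -0.19 and 0.12, with arrays 1 to 3 lower in drone and array 4 slightly higher. AmOr048 had 0.02, -0.05, 0.26 and -0.80, close to 0 except on array 4, and its mean of -0.14 became 0.076 without that array. AmOr059 had -0.51, -0.33, 0.26 and -0.01. Adjusted p values of these 6 in limma lay between 0.465 (AmOr038) and 0.999 (AmOr012).

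The ratios were also compared between the dye orientations. In 37 of the 56 the ratios of both arrays of one dye orientation lay above both ratios of the other, or 66.1%, and 54% of all genes did so, a difference in shares that was not tested. The ratio was higher with drone RNA in Cy5 in 21 of them and with drone RNA in Cy3 in 16 of them. The median size of the difference between the orientations was 0.52 on the log2 scale for the receptors, against 0.47 for all genes. The median size of the drone over worker ratio was 0.16 for the receptors, against 0.23 for all genes. The difference between the orientations subtracts means taken over fewer arrays, whereas the drone over worker ratio is a mean over all arrays. That difference therefore carries more noise, and the sizes of 0.52 and 0.16 cannot be weighed against each other. No receptor of the 56 had a dye term under an adjusted p of 0.05 in limma, and 0.319% of all genes had one.

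The largest dye difference was that of AmOr057, whose ratios were 1.04 and 0.80 on arrays 1 and 3 (drone in Cy3) and -0.38 and -2.02 on arrays 2 and 4 (drone in Cy5). Its drone signals were 918.5, 105.5, 1273.5 and 255 on arrays 1 to 4, against worker signals of 231.5, 240.5, 873.5 and 1674. The higher signal belonged to the sex labelled with Cy3 on each array. The mean with drone in Cy5 minus the mean with drone in Cy3 was -2.12, with an adjusted p of 0.055 for the dye term in limma, while the mean was -0.14 over the 4 arrays and 0.49 without array 4. AmOr053, with a difference of -1.43, followed the same side. AmOr032 and AmOr034 lay on the other side, at 1.82 and 1.13. AmOr032 was the receptor with the greatest spread, with log2 ratios of -0.85, 0.29, -0.00 and 2.50 on arrays 1 to 4. Its mean of 0.48 became -0.19 without array 4. Its signals of 65.5, 26, 145.5 and 223.5 in drone, against 57, 44.5, 101 and 130.5 in worker antennae, were under the controls on every array.

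Where the receptors could be placed, their numbers followed gene order. RefSeq's annotation of the assembly Amel_HAv3.1, which is not the assembly the array was designed on, held 22 of the 56 receptors under the matching symbol (AmOr005 as Or5, for example). All 22 lay on linkage group LG2, and their numbers rose along it. From Or4 to Or58 that annotation lists 50 protein-coding genes, of which 24 are named Or with a number and 26 are unnamed. The co-receptor gene Or2 lies elsewhere, on LG1. Promoter, protein and probe sequences were not used here.

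Ratios were then read along that gene order. Or9, Or10, Or11, Or12, Or13 and Or14 follow each other with no protein-coding gene between them. AmOr010 and AmOr011, which were left out of the 56, had mean log2 ratios of 1.82 ± 0.18 and 3.45 ± 0.17 (SE, n = 4). On one side of that pair AmOr009 had 0.56 ± 0.29, and on the other AmOr012 had -0.00 ± 0.16, followed by AmOr013 with 0.23 ± 0.21 and AmOr014 with 0.21 ± 0.24. None of these 4 flanking receptors was called, with adjusted p values of 0.341, 0.999, 0.627 and 0.747 in limma, and no test was run between neighbours. The 95% interval of AmOr012 ran from -0.38 to 0.37. AmOr010 and AmOr011 had been left out with earlier results known, so nothing is read from the contrast with their neighbours. None of the receptors from AmOr012 to AmOr017 reached 3 arrays in drone antennae, and AmOr012 alone of them did so in worker antennae. AmOr013 was above the controls on no array in either sex. The ratios of AmOr013 to AmOr017 therefore describe dim spots, which normexp with an offset draws toward 0. For AmOr012 that limit holds for the drone channel. Another stretch without an intervening gene, Or50 to Or53, held AmOr050 at 0.07, AmOr051 at -0.19, AmOr052 at 0.02 and AmOr053 at -0.11. The genes Or55 to Or58 also lie together, and they held AmOr055 at 0.06, AmOr056 at -0.14, AmOr057 at -0.14 and AmOr058 at -0.12. Without array 4 the ratios were 0.83 for AmOr009, 0.072 for AmOr013 and -0.024 for AmOr014, and those of AmOr053 and AmOr057 turned positive, at 0.37 and 0.49.

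Along the number range the medians were lower after AmOr041. The 8 receptors AmOr001 and AmOr003 to AmOr009 had a median log2 ratio of 0.22, the 6 from AmOr012 to AmOr017 one of 0.22, and the 23 from AmOr019 to AmOr041 one of 0.16. The 19 from AmOr043 to AmOr061 had a median of -0.11, with 13 negative and 6 positive ratios, against 26 positive and 11 negative in the 37 lower numbers. The gap was widest on array 4. On arrays 1 to 4 the medians of the 19 higher numbers were 0.02, -0.08, 0.15 and -0.48, and those of the 37 lower numbers were 0.07, 0.16, 0.07 and 0.23. Without array 4 the medians over the remaining arrays were 0.04 for the higher and 0.09 for the lower numbers. With dyes as in the protocol text, where 0 of all 313 genes were called, the order turned, at 0.07 for the higher and -0.17 for the lower numbers. These runs were chosen with results known, and no test was run between them.

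The remaining receptors of the array served as a comparison. The 54 receptors from AmOr062 to AmOr115 had a median log2 ratio of -0.17, with 2 called as higher in drone and 4 as higher in worker antennae. The 53 from AmOr116 upward had a median of -0.0078, with 1 called as higher in drone and 3 as higher in worker antennae. The 145 genes that are no odorant receptors had a median of 0.068. None of these medians was tested against that of the 56. Detection was low in these receptors as well, with 6 of 54 and 4 of 53 above the controls on 3 arrays in drone antennae, and 7 of 54 and 5 of 53 in worker antennae. Among 10 genes of the signalling pathway around the receptors (AmOr002, AmSNMP, arrestins, G-protein alpha subunits and Pinocchio) none was called by limma at an adjusted p under 0.05, and 3 passed an unadjusted p under 0.05.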

How the data were processed

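The authors deposited scanner output for 4 arrays: per the file headers, foreground and local background intensity at 635 nm (Cy5) and 532 nm (Cy3), and a quality score per spot (-75, absent; -50, not found). A deposited table of log2 ratios per spot, with normalization not given in the sources used here, served as an alternative; set against the scanner values it ran as worker over drone. Its column medians were -0.02, -0.09, -0.06 and 0.08. Dyes came from the label fields, which match the even dye swap of the design text. With them, the pairs of arrays correlated at r = 0.45 to 0.80 over the 257 genes outside the 56. The deposited table, turned to drone over worker, correlated with these ratios at r = 0.91 to 0.98 over all genes on each array. The protocol text names other dyes for arrays 2, 3 and 4, and with those dyes 0 of all 313 genes were called.

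Foreground medians were corrected with normexp (offset 50) and normalized by loess within arrays (limma 3.58.1, R 4.3.3). Absent spots were dropped, and controls had weight 0 in the loess. Loess hides a shift shared by most genes. Both spots per gene were averaged, ratios turned to drone over worker, and means of 4 arrays fitted on all 313 genes with lmFit and eBayes; tests are two-sided and adjusted by Benjamini-Hochberg. The script was tested on simulated data. For a receptor above the controls on no array of a sex, the bound sets the brighter sex's mean level, after loess and Aquantile, against, per array, the lowest level above the threshold or the dim level, whichever is higher; it is open to dye bias. Elsewhere no fold is given. Receptors named were the 10 with the smallest p, those above the controls on 3 arrays of a sex, the extremes of mean and spread, and, where stated, others. The 56 receptors, the lists and the number runs were chosen with earlier results of these data known.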

Additional observations from a re-analysis of the deposited data

Results flagged for a closer look

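In 4 of 57 sets of 4 ratios, those of the 56 receptors and of their median, 1 array stood far from the others by Dixon's criterion at the 95% level. Chance marks about 1 set in 20. AmOr016 had a log2 ratio of 0.39 on array 2, against 0.17 to 0.21 on the other arrays. AmOr028 had -0.34 on array 1, against 0.27 to 0.39 on the others. AmOr030 had 0.90 on array 4, against -0.14 to -0.01 on the others. AmOr060 had -0.35 on array 2, against -0.59 to -0.57 on the others. AmOr016 and AmOr028 were above the controls on no array in either sex. In AmOr060 all 4 ratios kept 1 direction, and the outlying one was the nearest to 0. The part of dim signal in these gaps was not tested.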

How the results depend on the processing

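The count of called receptors was 0 under every setting run except 6. It was 2 of 56 with no background correction, with a dye coefficient or with the arrays of a slide averaged (AmOr021 and AmOr044 each time), and 2 of the 12 tested when only genes above the controls without oligonucleotide 4 were kept (AmOr021 and AmOr060, of which AmOr060 entered through the sex in which it was higher). Leaving out 1 array in turn gave 0 to 2 calls, with AmOr044 alone called without array 3 (adjusted p 0.0484, limma) and AmOr022 and AmOr036 without array 4. Slide averaging, the oligonucleotide filter and leaving out spots coded as not found were chosen after seeing the data. The receptors' median of 0.034 moved to -0.28 under housekeeping centring, -0.11 under centring on the genes that are no receptors, -0.14 without normalization and -0.088 with the dyes of the protocol text. Leaving out 1 array in turn gave medians of 0.057 to 0.070. Without oligonucleotide 4 in the threshold, 6 receptors in drone and 10 in worker antennae passed on 3 arrays, against 0 and 0 with it. The filter on genes above all controls left no receptor to test. Slide as a random block could not be fitted, since 3 slides held 4 arrays and limma returned no correlation. No paired analysis was possible because the pools of an array share no label beyond their array, which the ratio already pairs.

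Of the named receptors' ratios, 28 reversed, 10 newly passed the threshold in the main direction, and 314 kept direction and side under the alternatives. With the dyes of the protocol text no gene of the array was called, and the log2 ratios were -0.19 for AmOr005, -0.27 for AmOr008, -0.28 for AmOr015, -0.28 for AmOr021, -0.17 for AmOr022, -0.18 for AmOr024, 0.0028 for AmOr025, -0.12 for AmOr026, -0.19 for AmOr031, -0.91 for AmOr032, 0.039 for AmOr039, 0.39 for AmOr044, 0.068 for AmOr046, 0.15 for AmOr048, 0.66 for AmOr057 and 0.23 for AmOr060. Housekeeping centring gave -0.081 for AmOr005, -0.053 for AmOr015, -0.044 for AmOr024 and -0.12 for AmOr031. Mean foreground gave 0.086 for AmOr046, median centring 0.036 for AmOr048 and slide averaging 0.016 for AmOr057. Leaving out 1 array in turn gave -0.042 to 0.072 for AmOr012 (above 0 without array 1), -0.25 to 0.067 for AmOr025 (above 0 without array 3), -0.19 to 0.93 for AmOr032 (below 0 without array 4), and, above 0 without array 4, -0.28 to 0.076 for AmOr048 and -0.54 to 0.49 for AmOr057. Apart from the dyes and the arrays left out, the cause was not tested. Signal near the negative controls limits every ratio of the dim receptors.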
